A study of Homo sapiens with 9 samples.

Results

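The genes described here are 9 small structural RNAs of the nucleus and nucleolus, with CLASP1, the protein-coding gene around RNU4ATAC. They were listed by symbol: the minor spliceosome RNAs RNU4ATAC, RNU6ATAC, RNU11 and RNU12, the major spliceosome RNAs RNU4-1 and RNU4-2, RN7SK, and the catalytic RNAs RMRP and RPPH1. Of the 10 listed symbols, 7 had an entry among the 24462 symbols counted, and 5 of these passed the filter on low counts (RNU4ATAC, RNU11, RMRP, RPPH1 and CLASP1). RNU6ATAC and RNU12 had too few reads for a test and are given as counts. RNU4-1, RNU4-2 and RN7SK are not analysed here. The members were chosen by symbol with results of these libraries known, above all the read counts and fold changes of RNU4ATAC, so their values describe these libraries and support no claim beyond them.

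The RNA came from U-373MG, an established human glioblastoma and astrocytoma cell line. Of 9 libraries, 3 came from cells given NnK-1 and 3 from cells given CBRV1-10493, each at 200 nM for 48 h, and 3 from untreated cells, which are the only control for either peptide. NnK-1 and CBRV1-10493 are synthetic peptides from jellyfish, labelled as like ShK, a potassium channel toxin of a sea anemone. No vehicle is named for the controls. Total counts ran from 11203094 to 13491075 per library, with reads on 15305 to 15968 genes. Of the 8 astrocyte and glioma markers, 7 reached 1 CPM (count divided by the library total, times 1000000), with VIM (vimentin) at a mean of 5661 CPM and GFAP (the astrocyte filament protein) at 23.4 CPM. Markers listed for other cell types were also counted in part, with the neuronal genes TUBB3 and MAP2 at 238 and 173 CPM, the oligodendrocyte gene MBP at 34.5 CPM and the epithelial gene KRT18 at 8.54 CPM. RBFOX3, MOG, EPCAM and PTPRC, which define neurons, oligodendrocytes, epithelium and leukocytes, had 11, 2, 0 and 1 reads over all 9 libraries.

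A small class of human introns is removed by the minor spliceosome. In it the U11 and U12 RNAs (RNU11 and RNU12) recognise the intron ends, and the U4atac and U6atac RNAs (RNU4ATAC and RNU6ATAC) pair with each other until U6atac is released to take part in catalysis. RNU4ATAC, RNU11 and RNU12 are made by RNA polymerase II and receive a ring of Sm proteins, whereas RNU6ATAC, RN7SK, RMRP and RPPH1 are made by RNA polymerase III. RPPH1 is the RNA of RNase P, which trims the 5′ ends of tRNA precursors, and RMRP is the RNA of RNase MRP, which acts on ribosomal RNA precursors. None of these RNAs carries a long poly(A) tail in its mature form, while the libraries were primed on runs of A, so a read count here depends on that priming and is not the amount of the RNA in the cell.

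The 4 minor spliceosome RNAs are shown because priming on A bears on their counts. Each is given 5′ to 3′ as DNA letters from GENCODE release 29 (GRCh38), with runs of at least 4 A in capitals. RNU4ATAC lies at chr2:121530881-121531007 on the plus strand, RNU6ATAC at chr9:134164439-134164564 on the minus strand, RNU11 at chr1:28648600-28648733 on the plus strand and RNU12 at chr22:42615244-42615393 on the plus strand.
RNU4ATAC: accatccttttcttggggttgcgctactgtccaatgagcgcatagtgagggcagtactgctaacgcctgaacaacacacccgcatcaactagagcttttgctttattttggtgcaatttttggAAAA
RNU6ATAC: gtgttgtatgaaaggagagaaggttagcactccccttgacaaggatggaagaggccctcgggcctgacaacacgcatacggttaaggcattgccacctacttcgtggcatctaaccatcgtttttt
RNU11: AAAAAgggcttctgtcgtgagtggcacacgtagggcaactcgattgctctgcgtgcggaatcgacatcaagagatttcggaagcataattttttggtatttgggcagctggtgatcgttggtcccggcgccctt
RNU12: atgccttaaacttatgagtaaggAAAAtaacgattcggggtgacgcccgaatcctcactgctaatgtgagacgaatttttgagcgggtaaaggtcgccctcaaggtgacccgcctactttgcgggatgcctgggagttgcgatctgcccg

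RNU4ATAC, of 127 bases, was the one of the 4 whose annotated sequence ended in AAAA (positions 124 to 127). Such an end was present in 111 of the 1900 transcripts annotated as snRNA (5.84%). In RNU11 the run of A stood at the 5′ end (positions 1 to 5 of 134), and in RNU12 it stood at positions 24 to 27 of 150. RNU6ATAC (126 bases) held no run of 4 A, and neither did RMRP or RPPH1, whose longest runs were 3 and 2. A run of at least 4 A was common among snRNA transcripts, at 72.1% of them. The exact letters AATTTTTG, of the kind that Sm proteins bind, were searched on the RNA strand alone. They stood in RNU4ATAC at positions 115 to 122 and in RNU12 at positions 74 to 81. Of all snRNA transcripts, 3.68% held them. RNU11 holds AATTTTTTG, with a longer run of T, which this exact search does not count. These matches describe the letters and say nothing of what was bound.

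RNU4ATAC lies inside CLASP1, which encodes a microtubule plus-end protein, but on the opposite strand, in intron 2 of 39 of one annotated transcript and in intron 1 of 38 of another. That intron is 75375 bp long, and RNU4ATAC lies 556 bp from its nearer exon and 136 bp from the nearest exon of any annotated CLASP1 transcript. The other listed RNAs with an entry lie outside protein-coding genes. The nearest coding gene stood on the opposite strand for each of them, at 175 bp for RPPH1 (PARP2), 273 bp for RMRP (CCDC107), 282 bp for RNU12 (POLDIP3), 4471 bp for RNU6ATAC (WDR5) and 5515 bp for RNU11 (TAF12). The sources used here do not state whether counting used strand, so reads of RNU4ATAC and of any antisense CLASP1 transcript over it cannot be told apart. The reads were counted on hg19, and no position was converted between builds.

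RNU4ATAC was by far the most counted of the listed small RNAs, with 13871 reads in all, against 347 for RPPH1, 126 for RMRP, 62 for RNU11, 60 for RNU6ATAC and 3 for RNU12. It made up between 91.5% and 97.9% of the summed reads of the listed small RNAs in a library. Among all detected genes it stood in the top 5.13% to 17.8% by read count. RNU6ATAC, its base-pairing partner, therefore had a very small fraction of its reads in these libraries.

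RNU4ATAC had 1152, 872 and 1025 reads in NnK-1 replicates 1 to 3, against 1166, 2049 and 1382 in the CBRV1-10493 replicates and 2693, 1979 and 1553 in the control replicates. It averaged 84.7 ± 6.98 CPM with NnK-1, 126 ± 37.2 CPM with CBRV1-10493 and 164 ± 52.2 CPM in control (SD, n = 3 each). Each NnK-1 library was below each library of the other 2 groups. The CBRV1-10493 range of 96.4 to 168 CPM overlapped the control range of 115 to 219 CPM. The order of the group means was thus NnK-1, CBRV1-10493 and control from low to high, and the neighbours CBRV1-10493 and control did not differ beyond their spread. The spread itself was unequal: the coefficient of variation was 8.24% with NnK-1, 29.5% with CBRV1-10493 and 31.9% in control. In bulk libraries fewer cells that hold an RNA and less of it per cell cannot be told apart.

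CLASP1 did not follow this order. It had 237, 259 and 213 reads with NnK-1, 254, 264 and 274 with CBRV1-10493, and 284, 212 and 253 in control, which is 19.9 ± 2.90, 21.7 ± 0.811 and 19.6 ± 3.20 CPM in the same order of groups (SD, n = 3 each). All 3 groups overlapped. The number of RNU4ATAC reads for each CLASP1 read was 4.86, 3.37 and 4.81 in NnK-1 replicates 1 to 3, 4.59, 7.76 and 5.04 in the CBRV1-10493 replicates and 9.48, 9.33 and 6.14 in the control replicates. On the log2 scale this ratio averaged 2.10 ± 0.30 with NnK-1, 2.50 ± 0.40 with CBRV1-10493 and 3.03 ± 0.36 in control (SD, n = 3 each). All NnK-1 ratios were below all control ratios, a difference of −0.93 in the mean log2 ratio. CBRV1-10493 overlapped both NnK-1 (difference 0.40) and control (difference −0.53). The ratio compares reads of 2 genes within a library, not molecules and not levels per length, and it does not depend on the library total.

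**Figure D1:**
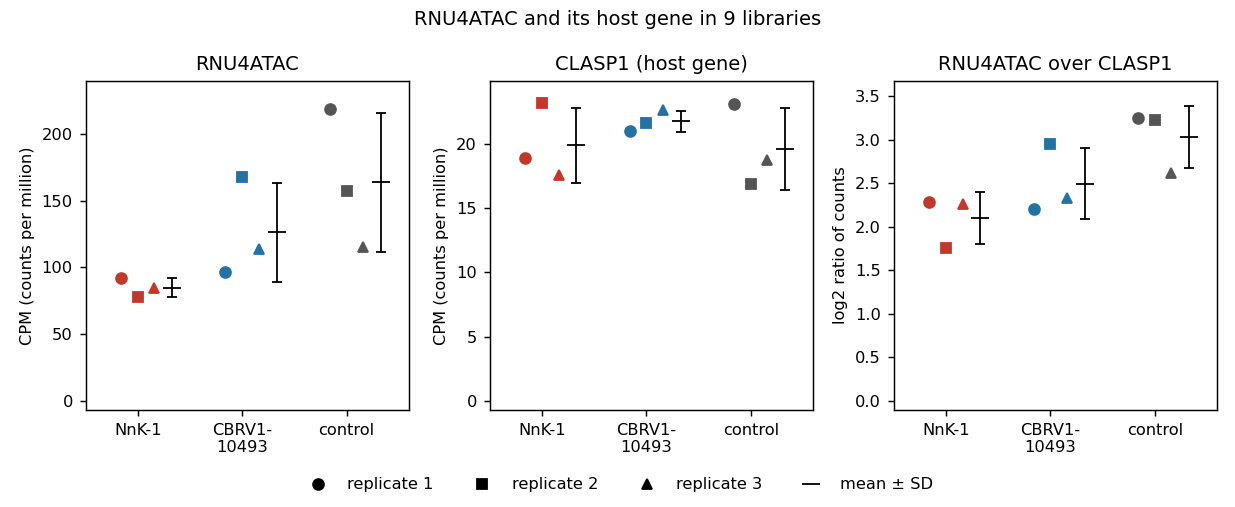
RNU4ATAC (CPM), CLASP1 (CPM) and the log2 ratio of their counts in each of 9 libraries, by group from left to right NnK-1, CBRV1-10493 and control, with the mean and SD of 3 libraries beside the points. RNU4ATAC lay between 77.8 and 91.8 CPM in NnK-1 libraries and above 115 CPM in each control library, while CLASP1 overlapped between all groups.

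In the fit across all 13676 tested genes (edgeR's quasi-likelihood test with Benjamini-Hochberg adjustment over all of them), 0 genes passed an adjusted p of 0.05 in any of the 3 comparisons, which is 0% of the genes tested, so no member passed. An unadjusted p under 0.05 was reached by 1001 genes for NnK-1 against control, 395 for CBRV1-10493 against control and 589 for CBRV1-10493 against NnK-1. DESeq2 called 3, 0 and 0 genes in these comparisons and limma-voom 0 in each. The smallest adjusted p in edgeR's quasi-likelihood test was 0.499, 1.00 and 0.994 in the same order. An unadjusted p under 0.05 was reached by 1 of the 5 tested members (RNU4ATAC) for NnK-1 against control, where 7.32% of all genes did, by 0 for CBRV1-10493 against control, where 2.89% did, and by 1 (RNU4ATAC) between the peptides, where 4.31% did. The log2 fold changes that follow are descriptions with 95% intervals from this fit, beside a median over all genes of 0.0033, 0.0027 and 0.0011.

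RNU4ATAC with NnK-1 had a log2 fold change of −0.92 against control (95% interval −1.31 to −0.53) and an adjusted p of 0.499 in edgeR's quasi-likelihood test. Of 10618 genes that averaged 5 CPM or more, 13 had a lower log2 fold change in this comparison. It was the 1 member of the 5 tested whose NnK-1 libraries all lay below the control libraries, in a comparison where 7.92% of all tested genes did so. Without control replicate 1, the highest library, its log2 fold change was −0.66. With CBRV1-10493 its log2 fold change was −0.36 (−0.75 to 0.03) against control, and −0.10 without control replicate 1. No member was lower without overlap there, beside 4.96% of all genes, and none was higher without overlap, beside 3.91% of all genes there and 5.08% with NnK-1. A log2 fold change below 0 was held by 3 of the 5 tested members with either peptide against control, where 49.4% of all genes with NnK-1 and 49.2% with CBRV1-10493 held one.

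Between the peptides, given at the same dose and for the same time, RNU4ATAC had a log2 fold change of 0.56 (0.17 to 0.95) for CBRV1-10493 against NnK-1 and an adjusted p of 0.994 in edgeR's quasi-likelihood test. It was the 1 member of the 5 tested that was higher without overlap, where 4.71% of all genes were, and none was lower without overlap, where 4.17% were. Below 0 lay 1 of the 5, beside 49.7% of all genes. CBRV1-10493 replicate 2, at 168 CPM, carried much of this distance: without it the log2 fold change was 0.30. CLASP1 overlapped between the groups in each comparison. Its log2 fold change was 0.05 (−0.32 to 0.42) with NnK-1 and 0.17 (−0.20 to 0.54) with CBRV1-10493, both against control, and 0.12 (−0.25 to 0.49) between the peptides.

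**Figure D2:**
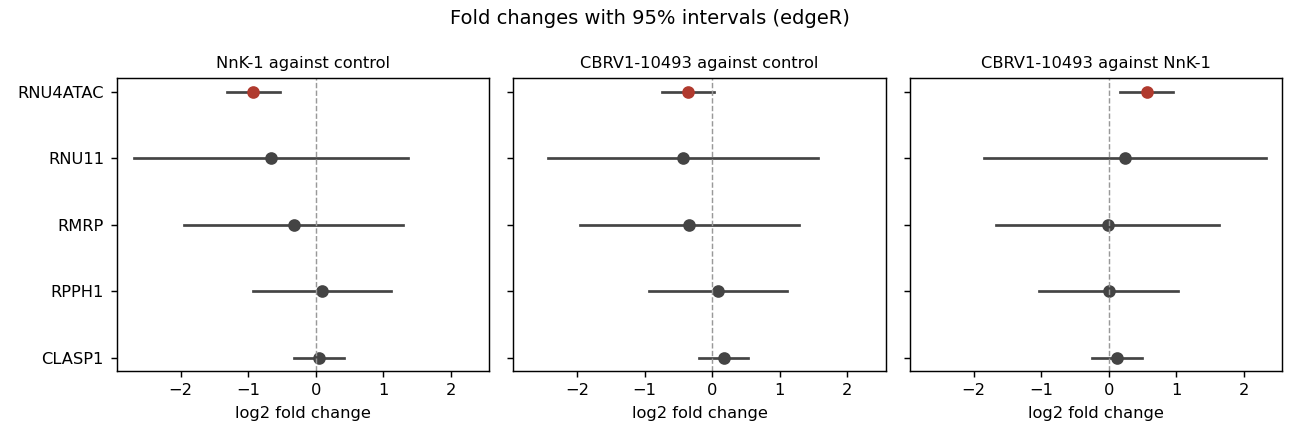
Log2 fold change with its 95% interval for the 5 tested members in the 3 comparisons, from the fit across all genes. The interval of RNU4ATAC ran from −1.31 to −0.53 for NnK-1 against control and from −0.75 to 0.03 for CBRV1-10493 against control, and those of RNU11, RMRP and RPPH1 took in 0 in every comparison.

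RNU6ATAC, the partner of RNU4ATAC in the minor spliceosome, had 17, 1 and 7 reads with NnK-1, 4, 9 and 8 with CBRV1-10493 and 4, 10 and 0 in control. The groups overlapped, and the NnK-1 libraries alone covered nearly the whole range. Summed over each group this was 0.697 CPM (exact Poisson 95% interval 0.451 to 1.03) with NnK-1, 0.577 CPM (0.357 to 0.881) with CBRV1-10493 and 0.365 CPM (0.199 to 0.612) in control. These intervals cover counting error only, not the spread between libraries. RNU6ATAC did not pass the filter on low counts, so no difference was tested.

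RNU11, the RNA that recognises the 5′ splice site of minor introns, had 6, 1 and 9 reads with NnK-1, 11, 7 and 1 with CBRV1-10493 and 14, 11 and 2 in control. All groups overlapped, and each held 1 library with at most 2 reads. Its mean was 0.437 ± 0.328, 0.522 ± 0.416 and 0.720 ± 0.512 CPM for NnK-1, CBRV1-10493 and control (SD, n = 3 each). The log2 fold change against control was −0.66 (−2.70 to 1.37) with NnK-1 and −0.43 (−2.43 to 1.57) with CBRV1-10493, and these intervals take in both no difference and one as large as that of RNU4ATAC. RNU12, which pairs with the branch point of minor introns, had 0 reads in all NnK-1 libraries, 2 in CBRV1-10493 replicate 1 and 1 in control replicate 2. A count of 0 over the NnK-1 group allows up to 0.0836 CPM (3 counts of the group's total), so no comparison was possible.

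RPPH1 had 53, 38 and 23 reads with NnK-1, 65, 35 and 16 with CBRV1-10493 and 26, 43 and 48 in control. Its group means lay close together, at 3.17 ± 1.18, 3.19 ± 2.05 and 3.03 ± 0.796 CPM (SD, n = 3 each), and the libraries of a group differed more than the means. Its log2 fold change was 0.09 (−0.93 to 1.11) for either peptide against control. RMRP had 6, 17 and 14 reads with NnK-1, 26, 6 and 6 with CBRV1-10493 and 14, 30 and 7 in control. All groups overlapped, with means of 1.05 ± 0.527, 1.05 ± 0.957 and 1.35 ± 0.949 CPM (SD, n = 3 each). Its log2 fold change against control was −0.32 (−1.94 to 1.30) with NnK-1 and −0.34 (−1.96 to 1.28) with CBRV1-10493.

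Within the CBRV1-10493 group, replicate 1 had the lowest counts of RNU4ATAC and of its partner RNU6ATAC, and the highest counts of RNU11, RNU12, RMRP and RPPH1. Replicate 2 of that group had the highest counts of RNU4ATAC and RNU6ATAC. Summed without RNU4ATAC, the listed small RNAs came to 5.33 ± 1.10 CPM with NnK-1, 5.39 ± 3.25 CPM with CBRV1-10493 and 5.49 ± 1.79 CPM in control (SD, n = 3 each), which overlapped. With RNU4ATAC the sums were 90.1 ± 7.77, 131 ± 35.9 and 169 ± 52.2 CPM, so the order of the sums was that of RNU4ATAC alone.

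**Figure D3:**
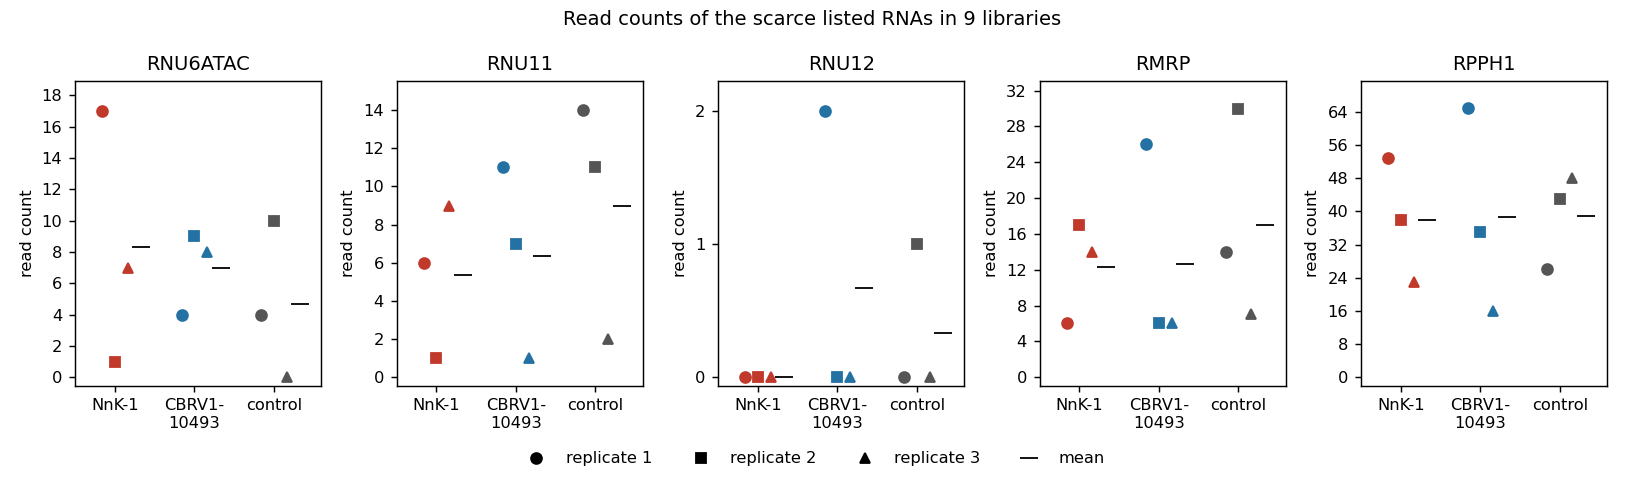
Read counts of RNU6ATAC, RNU11, RNU12, RMRP and RPPH1 in each of 9 libraries, by group from left to right NnK-1, CBRV1-10493 and control, with the mean of 3 libraries as a dash and an axis of its own for each RNA. No RNA separated the groups: RNU6ATAC ran from 1 to 17 reads with NnK-1 and from 0 to 10 in control.

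Other RNA classes that are known to lack a poly(A) tail were set beside RNU4ATAC. The Cajal body RNAs, which guide modification of spliceosomal RNAs, summed to 92.6, 102 and 126 CPM with NnK-1, 110, 131 and 106 CPM with CBRV1-10493 and 160, 195 and 163 CPM in control. Every library of either peptide was below every control library, and RNU4ATAC shared this for NnK-1. Of their 11 tested symbols, 10 had a log2 fold change below 0 with NnK-1 (median −0.67) and 8 with CBRV1-10493 (median −0.56), beside 49.4% and 49.2% of all genes. Of the 11 symbols, 0 passed in edgeR. DESeq2 called 1 of them, SCARNA22, for NnK-1 against control (log2 fold change −0.66, adjusted p 0.0137 in DESeq2). The H/ACA small nucleolar RNAs, guides of pseudouridylation, were likewise lower in every library of either peptide than in every control library. They summed to 79.2 ± 0.904 CPM with NnK-1, 85.4 ± 9.43 CPM with CBRV1-10493 and 107 ± 14.4 CPM in control (SD, n = 3 each). Of 22 tested symbols, 17 and 18 lay below 0 for NnK-1 and CBRV1-10493. Only 11 of 24 Cajal body and 22 of 107 H/ACA symbols passed the filter on low counts. Both sums were highest in control, so some symbols may have passed through the control libraries alone. The shares and medians below 0 are therefore not independent of that filter.

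The C/D small nucleolar RNAs, guides of 2′-O-methylation, summed to 30.1 ± 4.12 CPM with NnK-1, 27.9 ± 3.98 CPM with CBRV1-10493 and 34.2 ± 4.74 CPM in control, and these overlapped. Of their 8 tested symbols, 6 lay below 0 with NnK-1 (median −0.24) and 4 with CBRV1-10493 (median 0.08). The messages of the replicative histones, which end in a stem loop in place of a tail, summed to 1539 ± 182, 1551 ± 425 and 1404 ± 80.7 CPM (SD, n = 3 each), and 9 of 21 tested symbols lay above 0 with NnK-1 and 15 with CBRV1-10493. Whether the histone reads came from messages without a tail was not tested. The sums of these classes thus lay lower than control in some cases and not in others. The part of library priming in the RNU4ATAC values was not tested.

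**Figure D4:**
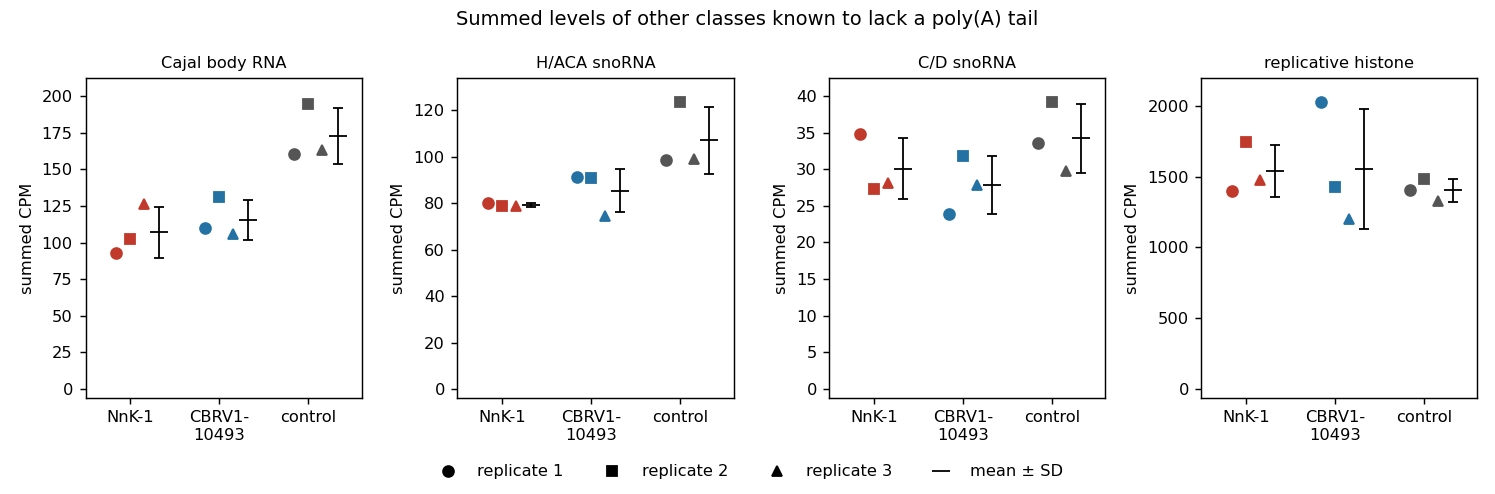
Summed CPM of the Cajal body RNAs, H/ACA small nucleolar RNAs, C/D small nucleolar RNAs and replicative histone messages in each of 9 libraries, by group from left to right NnK-1, CBRV1-10493 and control, with the mean and SD of 3 libraries. The Cajal body sums of all peptide libraries, at most 131 CPM, lay below those of the control libraries, at least 160 CPM, and so did the H/ACA sums, at most 91.1 CPM against at least 98.5 CPM.

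The proteins that work with these RNAs lay about evenly above and below 0. Over 10 lists with 139 tested genes, 70 had a log2 fold change above 0 and 69 below 0 with NnK-1 (median 0.01), and 65 and 74 with CBRV1-10493 (median −0.00), with 0 passing the test in either. An unadjusted p under 0.05 was reached by 9 (6.47%) with NnK-1, beside 7.32% of all genes, and by 6 (4.32%) with CBRV1-10493, beside 2.89% of all genes. The lists were chosen with earlier results of these libraries known.

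Of the proteins of the minor spliceosome, 6 of 13 lay above 0 and 7 below 0 with NnK-1 (median −0.10), and 5 and 8 with CBRV1-10493 (median −0.10). ARMC7, which binds the minor spliceosome protein RBM48, had 7.10 ± 0.822 CPM with NnK-1 against 12.8 ± 1.40 CPM in control (SD, n = 3 each), without overlap, at a log2 fold change of −0.82 (−1.28 to −0.36). Its adjusted p in edgeR's quasi-likelihood test was 0.499, a smallest value that it shared with other genes, RNU4ATAC and MARVELD1 among them. Its unadjusted p in that test was 0.00145, against 9.02e-05 for RNU4ATAC. ARMC7 was named for the smallest p of its list, and RNU4ATAC was listed with its values known. Neither p is therefore evidence of a difference. CENATAC, counted under its older symbol CCDC84 and required for splicing of a subset of minor introns, had 38.7 ± 5.81 CPM with CBRV1-10493 against 50.4 ± 2.91 CPM in control (log2 fold change −0.37). Neither passed.

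The proteins of the U4/U6 and tri-snRNP particles, which U4atac also enters, lay mostly just above 0, at 11 of 16 with NnK-1 (median 0.06) and 10 of 16 with CBRV1-10493 (median 0.03). Of all 13676 tested genes, 6926 and 6943 lay above 0 in these comparisons. DDX23, a helicase of the tri-snRNP, had 70.5 ± 12.0 CPM with NnK-1, 63.6 ± 6.52 CPM with CBRV1-10493 and 53.0 ± 7.24 CPM in control. The Sm and LSm ring proteins had 6 of 14 above 0 with either peptide. LSM5, of the ring that binds U6 and U6atac, had 110 ± 13.3, 104 ± 8.60 and 90.1 ± 3.78 CPM in the same order of groups, and both peptides lay above control without overlap at log2 fold changes of 0.31 and 0.23. Neither gene passed the test.

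The SMN complex and the cap and export factors, which assemble Sm rings on snRNAs in the cytoplasm, had 7 of 16 above 0 with NnK-1 and 5 of 16 with CBRV1-10493. GEMIN4 of that complex had 38.6 ± 3.38 CPM with NnK-1 against 32.1 ± 4.81 CPM in control, with overlap. STRAP, which binds the same complex, had 90.3 ± 9.32 CPM with CBRV1-10493 against 107 ± 8.92 CPM in control. The nuclear tailing and decay factors, which trim or adenylate the 3′ ends of nuclear RNAs, had 10 of 20 above 0 with NnK-1 and 6 of 20 with CBRV1-10493. Of these, the snRNA 3′ end exonuclease TOE1 had 15.9 ± 3.42 CPM with NnK-1 against 11.2 ± 1.82 CPM in control, and the deadenylase PARN 26.1 ± 1.89 CPM with CBRV1-10493 against 21.6 ± 3.42 CPM in control. Both overlapped control.

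Among the factors that transcribe these RNAs, 6 of 13 snRNA promoter factors lay above 0 with either peptide. ELL, of the little elongation complex at snRNA genes, had 21.0 ± 1.18 CPM with NnK-1 against 15.3 ± 2.11 CPM in control, and SNAPC3, a subunit of the factor that binds snRNA promoters, 24.9 ± 5.94 CPM with CBRV1-10493 against 34.2 ± 2.93 CPM in control. Neither overlapped control and neither passed. Subunits of RNA polymerase III lay above 0 in 11 of 15 cases with NnK-1 (median 0.09) and in 9 of 15 with CBRV1-10493 (median 0.06), beside 6926 and 6943 of all 13676 genes. POLR3F had 11.8 ± 1.90 CPM with NnK-1 against 7.68 ± 1.11 CPM in control, and POLR3K 28.3 ± 1.33 CPM with CBRV1-10493 against 23.0 ± 3.28 CPM in control.

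Integrator cuts the 3′ ends of polymerase II snRNAs. Its subunits lay above 0 in 4 of 14 cases with NnK-1 (median −0.05) and in 7 of 14 with CBRV1-10493 (median 0.00). The Integrator subunit INTS13, counted under its older symbol ASUN, had 18.9 ± 9.14 CPM with NnK-1 against 24.3 ± 4.79 CPM in control, with overlap, and INTS5 had 18.0 ± 2.01 CPM with CBRV1-10493 against 23.8 ± 0.601 CPM in control, without overlap. Of the proteins of the 7SK particle and P-TEFb, the elongation kinase held by it, 4 of 8 lay above 0 with either peptide. MEPCE, which caps 7SK RNA, had 37.0 ± 4.14 CPM with NnK-1 against 44.2 ± 5.79 CPM in control, and LARP7, which protects its 3′ end, 83.5 ± 6.20 CPM with CBRV1-10493 against 97.1 ± 8.97 CPM in control.

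The proteins shared by RNase P and RNase MRP, which hold RPPH1 and RMRP, had 5 of 10 tested genes above 0 with NnK-1 (median 0.02) and 7 of 10 with CBRV1-10493 (median 0.08). POP7, a subunit of both enzymes, had 106 ± 9.66 CPM with NnK-1, 99.8 ± 9.61 CPM with CBRV1-10493 and 122 ± 0.938 CPM in control. Both peptides lay below control without overlap, at log2 fold changes of −0.17 and −0.27, and neither passed. Of the 4 coding neighbours that were listed (CLASP1, PARP2, CCDC107 and POLDIP3, without the more distant WDR5 and TAF12), 3 lay above 0 with NnK-1 and 2 with CBRV1-10493. POLDIP3, next to RNU12, had 49.8 ± 13.7 CPM with NnK-1 against 39.8 ± 1.88 CPM in control, and PARP2, next to RPPH1, 14.7 ± 1.31 CPM with CBRV1-10493 against 20.2 ± 3.29 CPM in control.

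**Figure D5:**
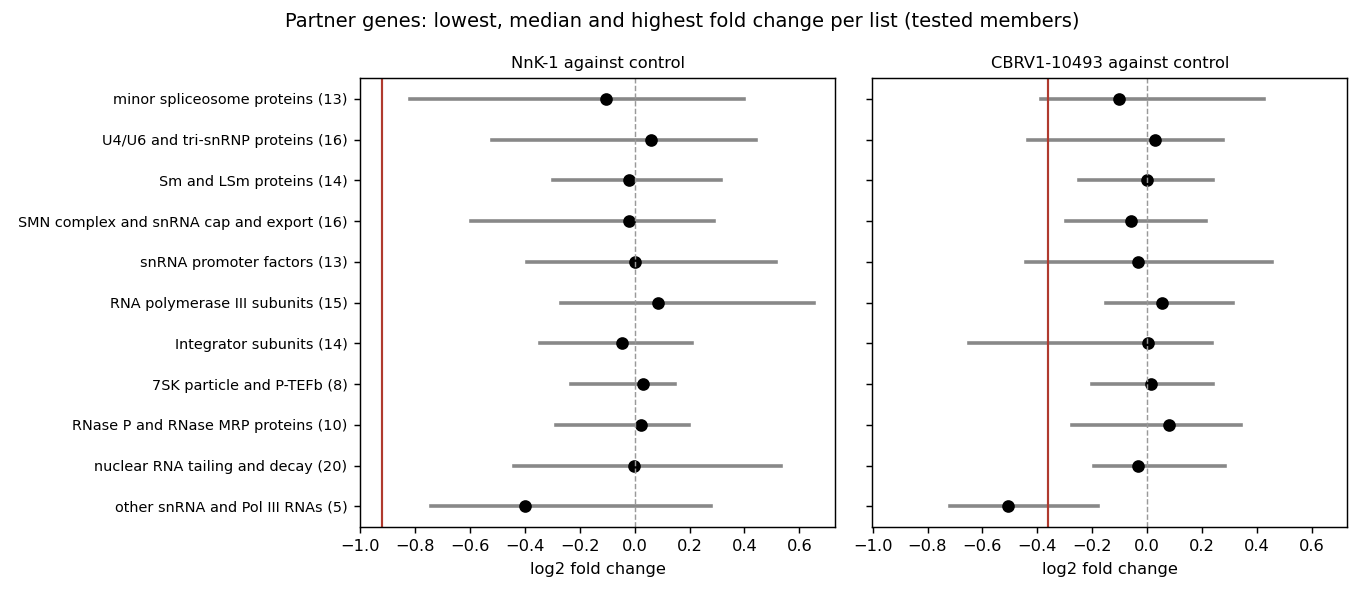
Log2 fold changes of the partner lists for NnK-1 against control and CBRV1-10493 against control, with a grey line over the lowest to the highest tested member, a black dot at the median, the number of tested members beside each list and a red line at the value of RNU4ATAC. The list medians of the proteins stayed between −0.10 and 0.09, beside −0.92 and −0.36 for RNU4ATAC, which is a single gene. Single proteins of these lists ran from −0.82 to 0.65 with NnK-1 and from −0.65 to 0.46 with CBRV1-10493. The medians of the other structural RNAs (lowest row) were −0.40 and −0.51.

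Likeness to RNU4ATAC was measured as the root-mean-square difference between profiles of log2(CPM + 1) over the 9 libraries, each centred on its own mean, among 10618 genes. The 5 nearest genes were ZC3H6, a zinc finger gene, at 0.144, TAF13, a subunit of the general transcription factor TFIID, at 0.162, the membrane protein gene MARVELD1 at 0.163, NEURL4 at 0.189 and the noncoding RNA LINC01399 at 0.199. CLASP1 stood at 0.474 and the median gene at 0.493, while the spread of RNU4ATAC about its own mean was 0.472. ZC3H6 had 119, 74 and 95 reads in NnK-1 replicates 1 to 3, 124, 199 and 165 reads in the CBRV1-10493 replicates and 237, 173 and 149 reads in the control replicates. As with RNU4ATAC, control replicate 1 was the highest of all and CBRV1-10493 replicate 2 the highest of its group. The log2 fold changes of the 5 genes lay between −0.85 and −0.58 with NnK-1 and between −0.39 and −0.12 with CBRV1-10493, both against control. The 5 genes were chosen for their likeness to RNU4ATAC over the same 9 libraries. Their order of libraries and the sign of their log2 fold changes therefore follow from that choice.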

How the data were processed

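Single-end reads of 75 bp came from QuantSeq libraries made with 500 ng of total RNA, per the labels. Per the submitters' processing notes Bowtie2, bedtools and the build hg19 were used. Versions, annotation and counting options were not given in the sources used here. What the authors deposited are raw counts of reads per symbol without normalizing them. Rows of 1 symbol (286 symbols had several) were summed, and CPM is the count divided by the library total, times 1000000. Low genes were removed with filterByExpr (minimum count 10, minimum total 15). edgeR 4.0.16 (R 4.3.3) then fitted the 9 libraries together with TMM factors, and its two-sided quasi-likelihood test was adjusted by Benjamini-Hochberg over 13676 genes, with a threshold of 0.05. The fit was tested on simulated data. DESeq2 1.42.0 and limma 3.58.1 were alternatives. Each pair of libraries differed beyond sampling noise. Separate cultures are not stated for the replicates, so a p-value measures only how these libraries spread, which may be technical.

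The members and lists were chosen with earlier results of these data known. Each list names the member averaging 5 CPM or more with the smallest p for each peptide against control. Where a gene so named did not overlap control, this follows in part from that choice. A further 5 genes are named for a profile like that of RNU4ATAC. Sequences and positions come from GENCODE release 29. Errors are SDs over 3 libraries.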

Additional observations from a re-analysis of the deposited data

How the results depend on the processing

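No called gene was found under TMM with the filter on low counts. Without that filter 74 genes were called for NnK-1 against control (27 higher, 47 lower), 6 for CBRV1-10493 against control and 1 for CBRV1-10493 against NnK-1, of 18756 tested. RNU4ATAC was then among them, at −0.92 (adjusted p 1.07e-11 in edgeR) with NnK-1 against control and 0.56 (adjusted p 0.0234 in edgeR) between the peptides. The prior degrees of freedom of that fit were infinite (13.6 with the filter), so the spread of single genes no longer entered. DESeq2 called 3 genes for NnK-1 against control, PPP2R2B higher and PCMTD1 and the Cajal body RNA SCARNA22 lower, and not RNU4ATAC (adjusted p 0.300 in DESeq2). Leaving out 1 library gave 0 calls throughout. RNU4ATAC kept its sign in each comparison under all 18 alternatives, with left-out libraries giving −1.12 to −0.66 for NnK-1 against control, −0.62 to −0.10 for CBRV1-10493 against control and 0.30 to 0.72 between the peptides.

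The sign of the scarce RNAs changed with the setting, except for RNU11 with NnK-1 against control, which stayed below 0 under the 16 alternatives that fitted it (−1.26 without NnK-1 replicate 3, −0.21 without NnK-1 replicate 2, −1.15 without control replicate 3 and −0.18 without control replicate 1, against −0.66). RNU11 was not fitted there with a filter of 5 CPM in 3 libraries or with only 6 libraries. Its highest libraries were control replicates 1 and 2 and CBRV1-10493 replicate 1 (1.14, 0.873 and 0.910 CPM). No NnK-1 library exceeded 0.742 CPM. RNU11 thus passed the filter on low counts through libraries outside NnK-1, and this sign is not independent of that filter. RPPH1 between the peptides (0.00058) was −0.0050 with DESeq2's size factors, −0.0021 without the filter, −0.0061 with the largest entry of each symbol, −0.0046 with DESeq2, −0.15 with limma-voom and −0.00093 with only 6 libraries, and with limma-voom it was −0.11 for CBRV1-10493 against control. Replicate numbers did not pair libraries (correlation of deviations −0.0566 to 0.132 for the same number, −0.0933 to 0.0975 for different numbers). With the replicate number as a block 0 genes were called, RPPH1 was −0.047 with NnK-1 and −0.10 with CBRV1-10493 against control and −0.056 between the peptides, RNU11 was −0.047 between the peptides, and RNU4ATAC with NnK-1 was −0.89 (adjusted p 0.472 in edgeR). Leaving out 1 library gave, for NnK-1 against control, −0.71 to 0.37 for RMRP, −0.16 to 0.35 for RPPH1 and −0.089 to 0.18 for CLASP1. For CBRV1-10493 against control it gave −1.09 to 0.071 for RNU11, −1.42 to 0.36 for RMRP and −0.52 to 0.46 for RPPH1, and between the peptides −0.42 to 0.83, −1.09 to 0.36 and −0.61 to 0.37 for the same 3 RNAs. The cause was not tested. The ratio to CLASP1 and the summed CPM moved by less than 1 SD. Counts of at most 65 reads limit what can be said of the scarce RNAs.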

Other observations

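Other RNAs of RNA polymerase III and other structural RNAs were present in part. Of 30 listed symbols, 12 had an entry, 5 of these had no read, and 5 were tested (RNU6-2, VTRNA1-2, VTRNA2-1, BCYRN1 and TERC). With CBRV1-10493 all 5 had a log2 fold change below 0 against control (median −0.51), beside 49.2% of all genes. With NnK-1 this held for 3 of 5 (median −0.40), beside 49.4%. VTRNA2-1 had at most 8 reads in a CBRV1-10493 library and passed the filter on low counts through control and NnK-1 libraries. Its value with CBRV1-10493 (−0.72) is therefore not independent of that filter. Of these 5 RNAs, 0 passed in edgeR. BCYRN1, the BC200 RNA, which represses translation, had 9.88, 9.37 and 9.65 CPM with NnK-1, 7.94, 9.66 and 9.41 CPM with CBRV1-10493 and 14.4, 12.7 and 11.8 CPM in control. Its libraries of both peptides lay below control, at log2 fold changes of −0.40 (−0.84 to 0.04) and −0.51 (−0.95 to −0.07). Such a position without overlap was held by 7.92% of all tested genes with NnK-1 and 4.96% with CBRV1-10493. TERC, the RNA of telomerase, which is made by polymerase II, had 15.1 ± 3.01 CPM with NnK-1, 20.1 ± 5.48 CPM with CBRV1-10493 and 22.9 ± 4.59 CPM in control (SD, n = 3 each), with overlap. RNU6-2, counted on several entries of a gene with near-identical copies and so uncertain, had 157, 115 and 86 reads with NnK-1, 81, 85 and 88 with CBRV1-10493 and 139, 119 and 126 in control. CBRV1-10493 lay below control without overlap and overlapped NnK-1.

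The primate RNAs of the SNAR-A family, made by polymerase III from 14 counted symbols with near-identical sequence, were picked out after their values were seen. Summed over the family they had 23, 26 and 24 reads with NnK-1, 33, 61 and 39 with CBRV1-10493 and 101, 122 and 77 in control. That is 2.04 ± 0.250, 3.65 ± 1.19 and 7.87 ± 2.01 CPM (SD, n = 3 each), and neither peptide overlapped control or the other peptide. Of all tested genes, 7.92% were lower than control without overlap with NnK-1 and 4.96% with CBRV1-10493. Between the peptides 4.71% were higher with CBRV1-10493 without overlap. Reads cannot be assigned to single copies with certainty. The one copy that passed the filter on low counts, SNAR-A8, had a log2 fold change of −1.71 (−3.18 to −0.24) with NnK-1 and −0.99 (−2.40 to 0.41) with CBRV1-10493 against control, and its adjusted p in edgeR was 0.634 with NnK-1 and 1.00 with CBRV1-10493. The family was counted highest in the control libraries. A single copy may have passed the filter through these libraries, so the SNAR-A8 values are not independent of that filter.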
